A study of Mus musculus with 6 samples.

Results

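A set of 78 genes was silent in control erythroblasts and expressed in SETD8-null erythroblasts of the mouse embryo. They were selected on the measured counts: a gene row entered with a count sum of 3 or less over the 3 control libraries and at least 20 counts in each of the 3 null libraries. Of 23284 gene rows 89 met those counts, and 11 genes that met them were left out by name, among them Fas, Ak1 and Tap1. The difference between the groups is therefore the criterion by which the genes were chosen, and their values are given as a description without a test. Control sums were 0 for 33 members, 1 for 24, 2 for 10 and 3 for 11.

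Polyadenylated RNA was sequenced from live Ter119+CD71+ cells sorted from C57BL/6 embryos at E10.5, mid-gestation. Ter119 marks the red cell lineage and CD71 is the transferrin receptor. The series' design names fetal blood as the tissue and the sample labels name fetal liver. Control replicates 1 and 3 were Setd8 +/+ with EpoRCre, and control replicate 2 was Setd8 fl/fl with wild-type EpoR. The 3 null replicates were SETD8fl/fl with EpoR Cre. EpoRCre places the recombinase under the erythropoietin receptor gene, so that deletion is directed to erythroid cells. The controls thus cover the Cre without the floxed allele and the floxed allele without the Cre, each alone. The titles of control replicate 3 and null replicates 2 and 3 end in a letter and those of the other 3 libraries do not; these 2 title sets are called lettered and unlettered here.

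SETD8, also known as KMT5A, adds a single methyl group to a lysine of histone H4, a mark tied to chromosome compaction, cell division and gene regulation. Erythroblasts shut down most other genes while they fill with globin and condense their nucleus. Genes that are normally used in cartilage, skin, white cells or nerve are hardly transcribed in them. The members include genes best known from such tissues.

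Assigned counts per library ran from 7756940 to 21434719, with control replicate 1 the shallowest. Setd8 itself stood at 74.0, 74.8 and 203.5 CPM (counts per 1000000, scaled by TMM factors) in control replicates 1 to 3 and at 48.9, 100.3 and 96.4 CPM in null replicates 1 to 3. Those ranges overlapped when the title sets were pooled. Within the unlettered set null replicate 1 was below both controls, and within the lettered set null replicates 2 and 3 were below control replicate 3. These values of the whole gene are given as a description. Erythroid identity was measured with a list of 24 markers, whose summed level was 352800 to 530100 CPM in controls and 219000 to 508300 CPM in nulls. Most of that sum came from the globin genes Hbb-y, Hba-x and Hbb-bh1, at 262700, 139400 and 116900 CPM in control replicate 1, so it says little of the other markers. None of the 22 tested markers passed the test with group alone (edgeR; 3 at unadjusted p under 0.05; 1 passed with DESeq2, lower in null). With title set as a further term 4 fell and 1 rose (edgeR adjusted p under 0.05). Rhd went from 633 ± 72.3 to 241 ± 38.5 CPM (SD, n = 3 each), Epor from 110 ± 53.5 to 70.1 ± 31.0, Tfrc from 426 ± 24.0 to 244 ± 45.0, and Nfe2 from 158 ± 26.9 to 258 ± 13.7. In single controls Epor stood at 52.3, 117.8 and 158.3 CPM in replicates 1 to 3. Of these only replicate 2 had wild-type EpoR, and all nulls carried EpoR Cre. The part of that allele in the level of Epor was not tested. The globin gene Hba-x went from 117100 ± 26080 to 67150 ± 29120 CPM.

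The members gave 77 reads in the 3 controls together and 24562 in the 3 nulls. Their summed level was 2.52, 1.44 and 1.53 CPM in control replicates 1 to 3 and 427, 533 and 355 CPM in null replicates 1 to 3. The highest control level of any member was 0.296 CPM, for Fli1 and Srsf12, each from 2 reads in the shallowest library. In bulk RNA a larger number of cells that express a gene cannot be told apart from more RNA per cell. Where a member had no control read, its fold is given as a lower bound against a limit of 3 counts over the control group, equal to 0.0638 CPM. The 33 such bounds ran from 23.3-fold for Maf to 647-fold for Matn1, with a median of 59.7. For the 45 members with 1 to 3 control reads the ratio of the group sums ran from 20.5 for Cryl1 to 1303 for Pm20d1, with a median of 109. These limits and intervals cover counting error only.

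The rule had no counterpart in the other direction. With control and null exchanged, 0 genes had a null sum of 3 or less and at least 20 counts in every control. Control replicate 1 is shallow, and 20 counts there equal 2.96 CPM against 0.930 to 1.17 CPM in the other 5 libraries, which makes the exchanged rule stricter. At a minimum of 5 counts, worth 0.741 CPM in that library, 237 genes met the forward rule and 8 the exchanged one. On a CPM scale, with at most 0.1 CPM in each library of the silent group and at least 1 CPM in each of the other, the numbers were 72 and 0. Of the 10795 rows with a control sum of 3 or less, 8237 were also at 3 or less over the nulls and 0.824% met the rule, the 11 left-out genes included.

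**Figure D1:**
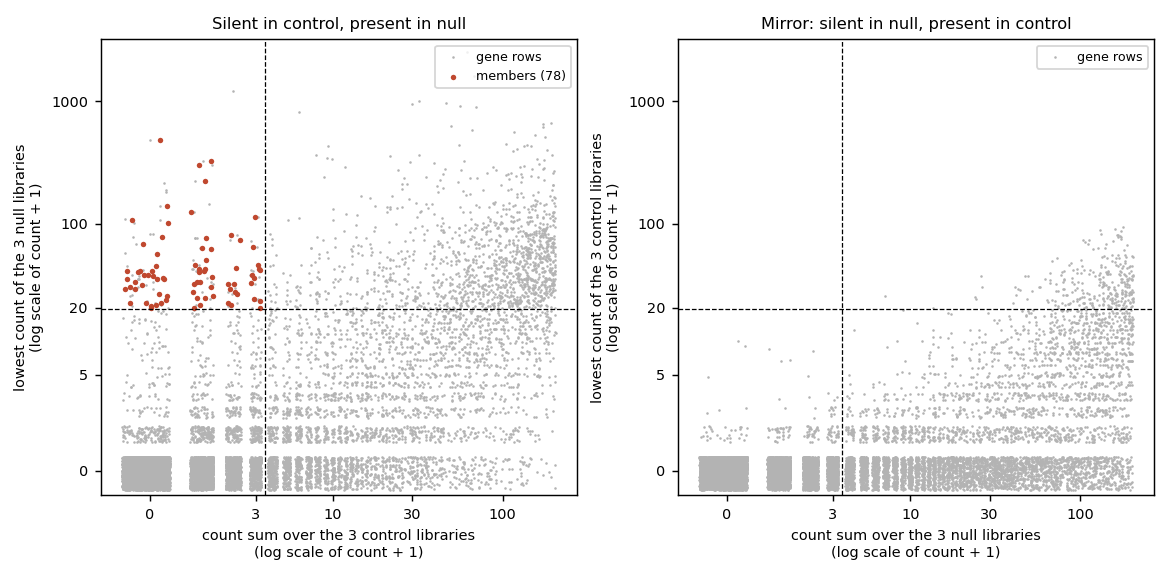
Each point is a gene row, with small random offsets so that equal counts do not hide each other, and both axes are log scales of count + 1. The left panel plots the count sum over controls (x) against the lowest count among the nulls (y), and the right panel exchanges the groups. Red points are the 78 members, dashed lines mark a sum of 3 and a count of 20, and grey points inside the upper left corner of the left panel are the 11 genes left out by name. The same corner of the right panel holds 0 genes.

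At the edges of the rule, Cryl1, Frmd4b and Gria3 had a lowest null count of exactly 20, and 5 further genes missed it with 19. Nearest outside on that side were Radil with null counts of 19, 93 and 30, Gpr97 with 19, 39 and 62, and Ptprv with 40, 19 and 55. On the control side, AW555464 and 5830418P13Rik were inside with a control sum of 3. Rbp2, 6530418L21Rik and Trim6 were outside with a sum of 4, at which 15 genes in all stood.

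Matn1, which encodes matrilin-1, a matrix protein of cartilage, was the most abundant member. It had 0 reads in each control and 28.4, 65.4 and 28.4 CPM in null replicates 1 to 3, at least 647-fold higher. Its mean null level of 40.7 CPM was above that of 87.7% of all gene rows. Hpcal1, a calcium sensor of the neuronal calcium sensor family, had 0 control reads and 6.31, 18.5 and 12.1 CPM in the nulls, at least 197-fold higher. Clic6, of the chloride intracellular channel family, also had 0 control reads and reached 5.96, 18.2 and 9.41 CPM, at least 179-fold higher. All 3 genes were highest in null replicate 2. Trpv2, a calcium-permeable cation channel of neurons and macrophages, had 0 control reads and 15.2, 1.90 and 23.9 CPM in the nulls. It was low in null replicate 2, where the other 3 peaked, and its 12.6-fold spread among the nulls was the widest of all members. Sparc, a secreted matrix glycoprotein of bone and connective tissue, had 0, 1 and 2 control reads and 9.70, 9.65 and 1.96 CPM in the nulls, a ratio of 109.9 (95% exact interval 37.3 to 535). Null replicate 3 was the low library for Sparc and the high one for Trpv2, so these 5 genes did not share an order of the null libraries.

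The upstream sequences of 5 members are shown to let the promoters be compared, since the genes were off and on in the same libraries. RefSeq promoter windows, from 250 bases before to 50 after a gene's start, were matched for 57 of the 78 members (build GRCm38.p6, the first window listed per gene). The 250 bases before the start are printed 5′ to 3′ on the gene's own strand for Matn1 (chr4:130944135-130944384 on the plus strand), Sparc (chr11:55420081-55420330 on the minus strand), Hpcal1 (chr12:17690559-17690808 on the plus strand), Ddit4l (chr3:137623422-137623671 on the plus strand) and Cd80 (chr16:38458683-38458932 on the plus strand). Capitals mark matches on either strand to the p53 half-site consensus, to TGANTCA (an AP-1 site), to TGACNNNGC (the core of the antioxidant response element), to AGATAA, the site of GATA factors, or to TATAAA, the core promoter element bound by the TATA-binding protein.
Matn1: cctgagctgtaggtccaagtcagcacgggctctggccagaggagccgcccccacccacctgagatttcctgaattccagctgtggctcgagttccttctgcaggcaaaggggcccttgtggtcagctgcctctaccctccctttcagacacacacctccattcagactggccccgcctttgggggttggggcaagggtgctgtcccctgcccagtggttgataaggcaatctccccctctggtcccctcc
Sparc: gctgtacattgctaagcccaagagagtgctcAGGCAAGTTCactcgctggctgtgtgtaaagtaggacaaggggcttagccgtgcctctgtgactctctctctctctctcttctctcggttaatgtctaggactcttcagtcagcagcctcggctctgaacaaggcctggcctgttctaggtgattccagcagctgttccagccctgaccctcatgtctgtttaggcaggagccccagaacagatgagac
Hpcal1: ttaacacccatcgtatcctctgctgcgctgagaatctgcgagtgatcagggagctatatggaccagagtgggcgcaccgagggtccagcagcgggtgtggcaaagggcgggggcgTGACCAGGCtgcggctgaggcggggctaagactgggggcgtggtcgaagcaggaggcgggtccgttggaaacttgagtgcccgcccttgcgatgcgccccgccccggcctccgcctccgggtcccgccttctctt
Ddit4l: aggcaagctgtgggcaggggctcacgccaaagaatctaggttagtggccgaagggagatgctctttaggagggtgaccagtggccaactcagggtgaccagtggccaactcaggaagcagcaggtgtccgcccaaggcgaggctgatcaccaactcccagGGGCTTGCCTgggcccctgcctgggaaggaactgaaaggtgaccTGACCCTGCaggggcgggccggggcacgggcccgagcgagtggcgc
Cd80: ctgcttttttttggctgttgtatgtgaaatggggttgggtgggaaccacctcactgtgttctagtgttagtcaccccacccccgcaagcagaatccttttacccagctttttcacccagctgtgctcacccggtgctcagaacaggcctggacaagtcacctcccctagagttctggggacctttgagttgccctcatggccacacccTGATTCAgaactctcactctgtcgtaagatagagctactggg
Sparc carries a p53 half-site match at 219 bases before the start and Ddit4l carries one at 90 bases, followed by TGACNNNGC at 46 bases. Hpcal1 has TGACNNNGC at 135 bases, Cd80 has TGANTCA at 42 bases, and Matn1 has none of these 5 motifs. The Matn1 sequence does hold TGATAA and that of Cd80 holds AGATAG, related forms of the GATA site that were not searched.

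Over the whole 300-base windows, a p53 half-site was found in 8 of the 57 members (14.0%) and in 7.39% of all 17549 rows with a window. The 8 genes were 1190003J15Rik, Ddit4l, Frmd4b, Nucb2, Ppfibp2, Sepn1, Sparc and Srsf12. TGACNNNGC occurred in 22.8% of members against 13.3% of all, and TGANTCA, which can overlap it, in 8.77% against 7.37%. TATAAA was found in 12.3% of members and 12.9% of all, at any position and on either strand. No member match before the start lay closer to it than the 98 bases of Srgn, so the share is not one of working TATA boxes. AGATAA was present in 1 member (Fyb, 1.75%) against 9.85% of all, and other forms of the GATA site were not counted. GGGCGG, the GC box, was found in 56.1% against 47.3% and CCAAT in 26.3% against 39.2%. Among the 7633 other rows with a control sum of 3 or less, shares were 8.06% for the p53 half-site, 11.2% for TGACNNNGC and 10.7% for TGANTCA. In that class they were 20.3% for TATAAA, 14.2% for AGATAA, 26.2% for GGGCGG and 38.7% for CCAAT. These are counts of letters in short windows and do not show that a factor binds there.

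The CpG content of the members' windows spread over a wide range that overlapped both other classes. The median ratio of observed to expected CpG was 0.459 over the 57 members, 0.255 over 7633 other rows with a control sum of 3 or less, and 0.766 over 9859 rows with a larger control sum. A ratio above 0.6 was reached by 18 members (31.6%), by 20.3% of the other silent rows and by 71.4% of the rows expressed in controls. Among the genes printed above, Hpcal1 was CpG-rich with a ratio of 0.781, whereas Matn1 had 0.216, Sparc 0.174 and Cd80 0.164. The highest member was AW555464 at 1.02 and the lowest was Isg20 at 0.0552, so that both CpG-rich and CpG-poor promoters were present. No test was made of this difference.

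**Figure D2:**
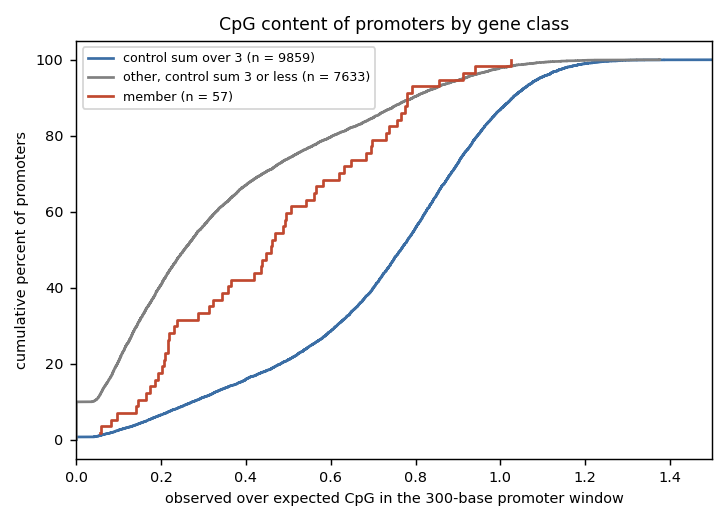
Cumulative percent of genes (y) against the observed over expected CpG ratio of the 300-base RefSeq promoter window (x). The line of the 57 members with a window (median 0.459) runs between that of the other rows with a control sum of 3 or less (median 0.255) and that of the rows with a larger sum (median 0.766).

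The 78 members were sorted by the usual role of their product into 9 groups, assigned by hand with their values known. Extracellular matrix and matrix enzymes formed a group of 7, with a summed level of at most 0.186 CPM in each control and 58.7, 102 and 44.5 CPM in the nulls. Beside Matn1 and Sparc it held Mmp2, a gelatinase; Plod2, a collagen lysyl hydroxylase; Adam33, a membrane metalloprotease; Sulf2, an extracellular sulfatase acting on heparan sulfate; and Layn, a hyaluronan receptor. Adam33 had 1 read in control replicate 3 and 5.55, 10.4 and 3.20 CPM in the nulls. Layn was uneven, with 8.18 CPM in null replicate 1 against 1.23 and 2.27 CPM in the others. Plod2 and Sulf2 were highest in null replicate 2, at 6.32 and 6.16 CPM.

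Products of immune and other blood cells formed the largest group, with 16 members and 7 of them without a control read. Its summed level was 102, 82.5 and 79.4 CPM in the nulls. Alox5, the lipoxygenase that starts leukotriene synthesis in myeloid cells, had 1 control read and 27.4, 27.8 and 15.7 CPM, a ratio of 1105 (95% exact interval 198 to 43668). Gna15, a G protein alpha subunit of haematopoietic cells, had 1 control read and 18.3, 21.9 and 11.6 CPM, a ratio of 810.5 (145 to 32045). Both genes were lowest in null replicate 3 and still above 11 CPM there. Cd80, a ligand that costimulates T cells, had 1 control read and 10.8, 3.95 and 6.56 CPM. Ptgs1, the cyclooxygenase of platelets, had 0 control reads and 3.39, 2.93 and 6.46 CPM. The other members with 0 control reads were Srgn, the core of granule proteoglycans; Isg20, an interferon-induced exonuclease; Tnfrsf18, a receptor of regulatory T cells; Rab44, a GTPase of the Rab family; Cd200r1, an inhibitory receptor of myeloid cells; and the transcription factor Maf. Isg20 reached 10.1 CPM in null replicate 1 and Srgn 9.36 CPM in null replicate 3, and both were under 2 CPM in null replicate 2. The remaining members had 1 to 3 control reads: C5ar1, the receptor of complement fragment C5a; Cd36, a scavenger receptor; Ctss, a lysosomal cathepsin; Fyb, an adaptor of T cells and platelets; Lif, a cytokine; and Fli1, an ETS factor of megakaryocytes and endothelium. Cd200r1 belongs to a family of near-identical receptor genes, and reads that fit several of them may be missing from its count.

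Ion channels, calcium sensors and receptors numbered 8 and summed to 42.5, 52.7 and 52.98 CPM in the nulls. Beside Trpv2, Clic6 and Hpcal1 they were Gria3, a glutamate receptor subunit of neurons; Npr2, a natriuretic peptide receptor; Nucb2, a calcium-binding secreted protein; Eng, the endothelial coreceptor endoglin; and Paqr9. Gria3 had no control read and was uneven, with 6.49 CPM in null replicate 1 and 1.03 CPM in null replicate 3. Nucb2 was the most even of the 8, at 1.69, 1.49 and 1.34 CPM.

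Genes of epithelial barriers numbered 9, of which 5 had no control read, and summed to 32.1, 44.2 and 24.3 CPM in the nulls. They were Ap1m2, an epithelial clathrin adaptor subunit; Grhl3, a transcription factor of the skin barrier; Pkp3, a desmosomal plaque protein; Pvrl4, the adhesion molecule nectin-4; St14, the protease matriptase; Slc39a4, an intestinal zinc importer; Marveld1; Prrg4; and Tmem40. Pvrl4 had 0 control reads and 3.97, 6.78 and 5.32 CPM. Marveld1 had 1 control read and 2.92, 5.85 and 3.88 CPM. Tmem40 was the most even member of all, at 2.45, 2.36 and 2.27 CPM, and Pkp3 was similar at 2.34, 2.46 and 2.17 CPM. St14 was at 10.3 CPM in null replicate 2 against 2.40 and 3.31 CPM in replicates 1 and 3.

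Cytoskeleton, cilia and membrane traffic contributed 12 members, summing to 44.1, 63.8 and 63.9 CPM. Gsn, the actin-severing protein gelsolin, had 0 control reads and 8.12, 7.14 and 7.598 CPM, almost level over the nulls. Rhod, a small GTPase of endosomes, had 0 control reads and 4.56, 10.2 and 8.48 CPM. It overlaps A930001C03Rik, another member, with 0 control reads and 2.75, 2.93 and 1.34 CPM. Reads in the overlap may have been left uncounted or given to either gene. AW555464, now named Cep170b, a relative of a centrosomal protein, had 3 control reads and 6.603, 14.2 and 7.39 CPM. Arap2, a regulator of small GTPases, had 2 control reads and 4.32, 7.50 and 5.22 CPM. Emb, the adhesion protein embigin, had 1 control read and 2.69, 4.88 and 12.4 CPM, with null replicate 3 far the highest. The others were Eps8, which caps actin; Kif9, a kinesin; Tctn2, of the ciliary transition zone; Myo7a, a myosin of hair cells; Tubb2b, a neuronal beta-tubulin that is nearly identical to Tubb2a; Frmd4b; and Ppfibp2. Tctn2 reached 9.61 CPM in null replicate 3 and lay under 3 CPM in the other 2 nulls.

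Metabolic genes numbered 10 and summed to 79.2, 94.2 and 45.9 CPM. Pm20d1, a secreted enzyme that joins fatty acids to amino acids, was the second most abundant member, with 1 control read and 21.2, 44.2 and 16.9 CPM, a ratio of 1303 (95% exact interval 234 to 51505). Acer2, a Golgi ceramidase, had 2 control reads and 4.73, 10.01 and 5.43 CPM. Adc, now named Azin2, an antizyme inhibitor of the polyamine pathway, had 0 control reads and 2.104, 11.7 and 7.29 CPM. Also in the group were Cryl1, a crystallin-related dehydrogenase; Abca8b, a lipid transporter; Thnsl2; Scpep1, a serine carboxypeptidase; 1190003J15Rik, now named Urah, of urate breakdown; and Rnase4, a secreted ribonuclease that shares its locus with Ang. Ang had 5 reads in null replicate 1 and 0 in the other 5 libraries.

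Genes of stress, cell death and growth control numbered 9, with 5 lacking any control read, and summed to 48.3, 70.0 and 28.9 CPM. Ddit4l, an inhibitor of mTOR signalling, had 1 control read and 15.4, 21.5 and 6.41 CPM, a ratio of 677 (95% exact interval 121 to 26765). Sepn1, now named Selenon, a selenoprotein of the endoplasmic reticulum, had 1 control read and 3.68, 11.7 and 8.53 CPM. Mlkl, the executor of necroptosis, had 0 control reads and 2.22, 5.34 and 2.12 CPM. Gsdmd, the pore protein of pyroptosis, had 1 control read and 1.75, 1.64 and 2.998 CPM. The group further held Hspa1a, an inducible heat shock protein with a near-identical copy in Hspa1b; Osgin1, induced by oxidative stress; Derl3, of protein export from the endoplasmic reticulum; Nr4a1, an immediate-early nuclear receptor; and Dkkl1, a secreted protein of the testis. Osgin1 was at 12.3 CPM in null replicate 1 and at 1.60 CPM in null replicate 3. Dkkl1 was likewise lowest in null replicate 3, at 1.09 CPM against 4.62 and 7.09 CPM in replicates 1 and 2.

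The smallest groups were RNA processing and noncoding RNA, with Rpp25, an RNase P subunit, Srsf12, a splicing factor, and Airn, the imprinted antisense RNA of Igf2r, and 4 little described genes: 1810019D21Rik, 5830418P13Rik, A930001C03Rik and Mab21l3. Airn had 2 control reads and 1.87, 2.41 and 3.83 CPM. It overlaps Igf2r, which stood at 13.9 to 24.1 CPM in controls and at 53.5, 28.2 and 14.7 CPM in the nulls; Airn was highest and Igf2r lowest in null replicate 3. 5830418P13Rik had 3 reads in control replicate 2 and 3.80, 6.06 and 4.24 CPM in the nulls. In all, 13 members overlap another gene with a row, and the sources used here do not give the strand setting of the counting, so reads of overlapping pairs cannot be told apart.

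**Figure D3:**
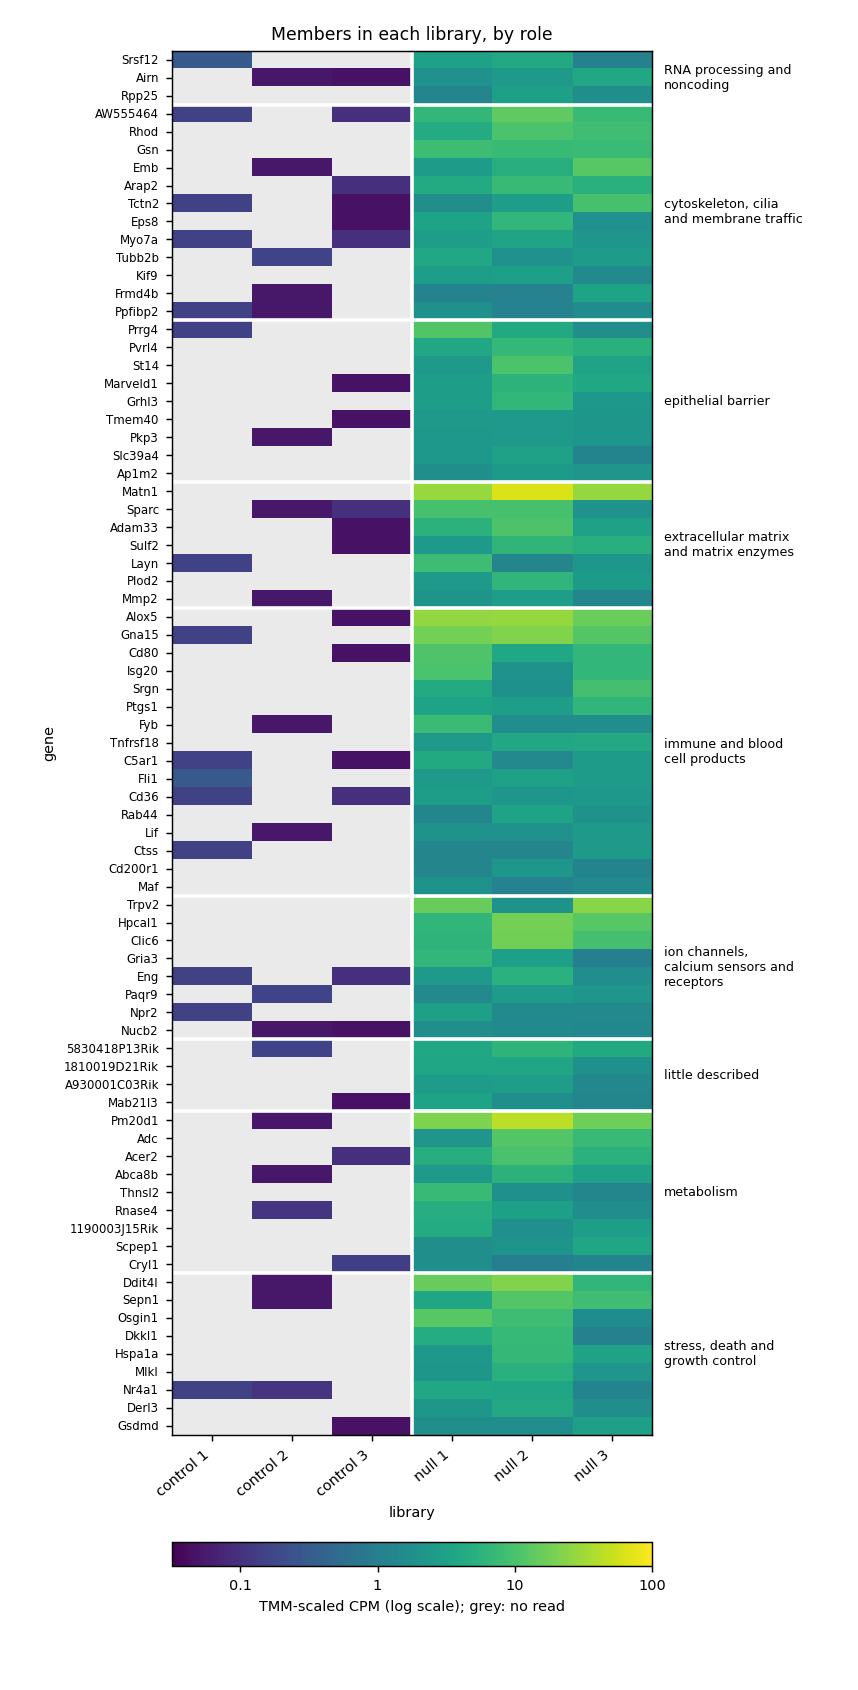
TMM-scaled CPM (colour, log scale) of the members named in the text, 1 row per gene grouped by role, in the 3 control and 3 null libraries. Grey cells had no read: 33 members are grey in all controls, coloured control cells reach at most 0.296 CPM, and every null cell lies between 1.03 and 65.4 CPM.

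Most members stayed at low levels in the nulls. Their mean null level ran from 1.32 CPM (Cryl1) to 40.7 CPM (Matn1) with a median of 3.60, against a median of 16.5 CPM over all 10512 tested genes. 9 members reached 10 CPM and 52 lay under 5 CPM. Divided by the length of the longest annotated transcript, Matn1 stayed first at 20.4 CPM per kilobase, followed by Gna15 at 8.80, Hpcal1 at 8.08, Alox5 at 6.61 and Isg20 at 5.68. The lowest per length were Paqr9 at 0.249 and Maf at 0.236 CPM per kilobase.

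The null libraries did not agree on the level of single members. The ratio of the highest to the lowest null level had a median of 2.51 over members, was under 2 for 21 and was 5 or more for 12. It had a median of 2.39 over 6859 other tested genes in the same range of null levels. Null replicate 2 was the highest library for 42 members (53.8%), null replicate 1 for 24 (30.8%) and null replicate 3 for 12 (15.4%). Among tested genes outside the set the shares were 31.0%, 39.0% and 30.1%. Both lettered nulls were above the unlettered one for 27 members and below it for 24. Among tested genes outside the set 42.4% were above and 38.9% below. The part of the title set in the members' levels was not tested.

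Marker lists of 12 other tissues were measured beside the members, because several members are known from those tissues. Of 190 listed genes outside the set, 117 had a control sum of 3 or less, and 65 of these also had a null sum of 3 or less. The filter on low counts kept 40 for the test, and a gene near 0 in controls was kept only where nulls had reads, which favours higher values. With group alone 3 of the 40 were higher in null (7.5%; Fn1, Cd68 and Des) and 0 lower, where 1.14% of all tested genes were called higher and 0.00951% lower (edgeR adjusted p under 0.05). With title set as a further term 17 were higher (42.5%) and 0 lower, against 8.65% and 4.16% of all tested genes. The shares over all tested genes include the 78 members and left-out genes such as Ak1, whose direction the rule fixed. Neither fit had a marker lower at an unadjusted p under 0.05, and DESeq2 called 22 of the 190 higher and 0 lower. The count depended on single libraries: with group alone it was 0 without control replicate 1 or without any single null, and with title set as a term it was 2 without null replicate 1.

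Cartilage markers were low in both groups. None of the 18 reached enough reads for the test, DESeq2 without that filter called 0 (0 at unadjusted p under 0.05), 13 had a control sum of 3 or less, and the list summed to 0.533 to 1.67 CPM in controls and 1.13 to 3.72 CPM in nulls. Col11a1 and Ucma were at 0 in every null. Sox6 and Col10a1, the most abundant over all 6 libraries, had mean null levels of 0.482 and 0.194 CPM. Mesenchymal markers summed to 27.7 to 86.6 CPM in controls and 192 to 268 CPM in nulls, most of it from Fn1, fibronectin, at 32.9 ± 14.7 and 167 ± 17.5 CPM (SD, n = 3 each; edgeR adjusted p = 0.036 with group alone). Vim, vimentin, had 0, 0 and 1.16 CPM in controls and 27.6, 14.1 and 16.0 CPM in nulls (edgeR adjusted p = 0.011 with title set as a term). The fibroblast genes Postn, Dcn, Lum, Pdgfrb, Twist1 and Fbn1 were at 0 in every null.

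Markers of epithelium summed to 1.63 to 2.34 CPM in controls and 13.7 to 38.6 CPM in nulls. With title set as a term 3 of 4 tested were higher: Krt18, a keratin, at 0, 0 and 1.12 CPM in controls and 18.9, 11.1 and 5.17 CPM in nulls, and the tight junction genes Cldn6 and Ocln with null means of 3.81 and 3.18 CPM (edgeR adjusted p 0.026, 0.027 and 0.039). With group alone 0 of the 4 passed, with 3 at unadjusted p under 0.05, and DESeq2 called 3. Cldn3 was at 0 in every null. Muscle markers summed to 16.3 to 24.5 CPM in controls and 29.1 to 79.3 CPM in nulls. The 1 called by edgeR was Des, desmin, at 0.241 ± 0.218 and 28.9 ± 10.4 CPM (edgeR adjusted p = 0.036 with group alone). DESeq2 called 3 of the 16 listed genes higher. Myf5, Tnnc1 and Myl1 were at 0 in every null.

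White cell markers were present in the nulls. Macrophage markers summed to 2.82, 2.45 and 11.6 CPM in control replicates 1 to 3 and to 37.9, 48.0 and 110 CPM in null replicates 1 to 3. Cd68, a lysosomal protein of macrophages, was at 1.31 ± 0.280 and 15.2 ± 5.53 CPM (SD, n = 3 each; edgeR adjusted p = 0.033 with group alone). Csf1r, Fcgr3 and C1qb passed in edgeR with title set as a term and not with group alone, and DESeq2 called 5 of the 18 listed genes higher. All 3 had reads in control replicate 3 and none in the other controls. Csf1r stood at 9.06, 6.57 and 18.0 CPM in the nulls. The macrophage list was highest in null replicate 3. The members Trpv2, Srgn, Ctss and Ptgs1, picked after their values were seen, were highest there too, whereas Alox5, C5ar1, Cd36 and Cd200r1 were not, and the sum over all members was lowest there. Marco and Vcam1 were at 0 in every null. Granulocyte and mast cell markers summed to 0.586 to 3.07 CPM in controls and 74.8 to 120 CPM in nulls, with Ltf, lactoferrin, at 84.9, 72.2 and 51.7 CPM. Mpo, the myeloperoxidase of granulocytes, was at 5.26, 1.03 and 61.2 CPM, and Prtn3, a granule protease, was at 4.91 CPM in null replicate 3 and 0 elsewhere. The markers Elane, Ngp, Cpa3, Mcpt4 and Cma1 were at 0 in every null.

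Of the megakaryocyte list 3 of 8 tested were higher with title set as a term (Itga2b, Itgb3 and Thbs1) and 0 with group alone in edgeR (4 at unadjusted p under 0.05); DESeq2 called 4. The list summed to 30.7 to 51.7 CPM in controls and 131 to 166 CPM in nulls, and Ppbp was at 0 in every null. Itga2b, the platelet integrin alpha subunit, was at 12.3 ± 7.52 and 51.3 ± 15.3 CPM. Of the endothelial list 3 of 5 tested were higher with title set as a term (Pecam1, Tek and Plvap) and 0 with group alone in edgeR (3 at unadjusted p under 0.05); DESeq2 called 3. It summed to 4.15 to 17.4 CPM in controls and 30.6 to 40.3 CPM in nulls, and Emcn and Cldn5 were at 0 in every null. The lymphoid, neural, liver and yolk sac, and germ cell or placenta lists had 0 calls in either edgeR fit among 0, 2, 1 and 2 tested genes, with 0 at unadjusted p under 0.05; DESeq2 called 1 lymphoid gene. Their most abundant genes were Cd79a, Tubb3, Trf and Nanog. The cells had been sorted as Ter119+CD71+, and the part that cells of other types had in the members' levels was not tested.

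**Figure D4:**
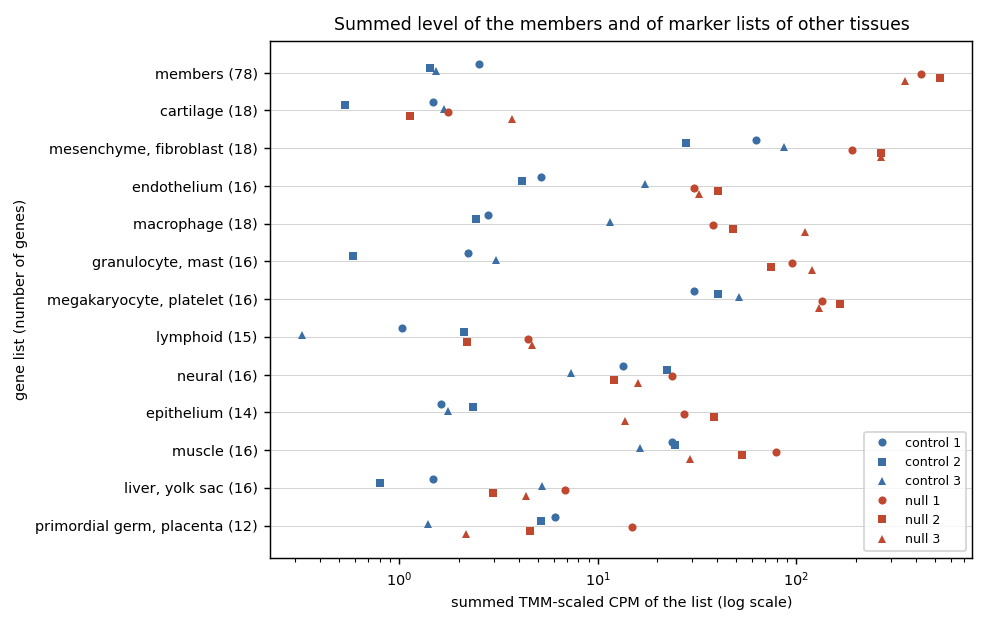
Summed TMM-scaled CPM (x, log scale) of the 78 members and of 12 marker lists (y, number of genes outside the set in brackets), 1 point per library, controls in blue and nulls in red, replicates by symbol. The members' sums, 1.44 to 2.52 CPM in controls and 355 to 533 CPM in nulls, are apart by the rule that chose them. The cartilage list, at 0.533 to 1.67 and 1.13 to 3.72 CPM, overlaps between the groups.

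Relatives of the 5 leading genes were mostly silent in both groups. Of 31 relatives in 5 gene families, 19 had a control sum of 3 or less, and none of these had 20 counts in each null; the highest single null count among them was 23. The 3 other matrilins summed to at most 0.741 CPM in any library, with Matn2 the most abundant at null counts of 4, 1 and 12. Among 12 other neuronal calcium sensors 1 was tested and 0 called by edgeR or DESeq2 (0 at unadjusted p under 0.05); Guca1b and Kcnip4, the most abundant over all libraries, had null means of 0.616 and 0.644 CPM. Clic1, a widely expressed relative of Clic6, was at 158 ± 17.6 CPM in controls and 408 ± 120 CPM in nulls (SD, n = 3 each), which passed with title set as a term (edgeR adjusted p = 0.00045) and not with group alone (edgeR adjusted p = 0.08). Clic3 had 19 reads in null replicate 1 and 0 elsewhere. Trpv3, the most abundant relative of Trpv2, was at 4.60 CPM in controls and 1.06 CPM in nulls on average, and Trpv4 and Trpv6 had no null read. Spock1, of the SPARC family, was at 0.531 ± 0.208 and 4.34 ± 3.18 CPM, which passed neither edgeR fit (adjusted p = 0.16 and 0.086) and was called by DESeq2. Fstl1 was at 2.94 and 2.77 CPM on average.

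**Figure D5:**
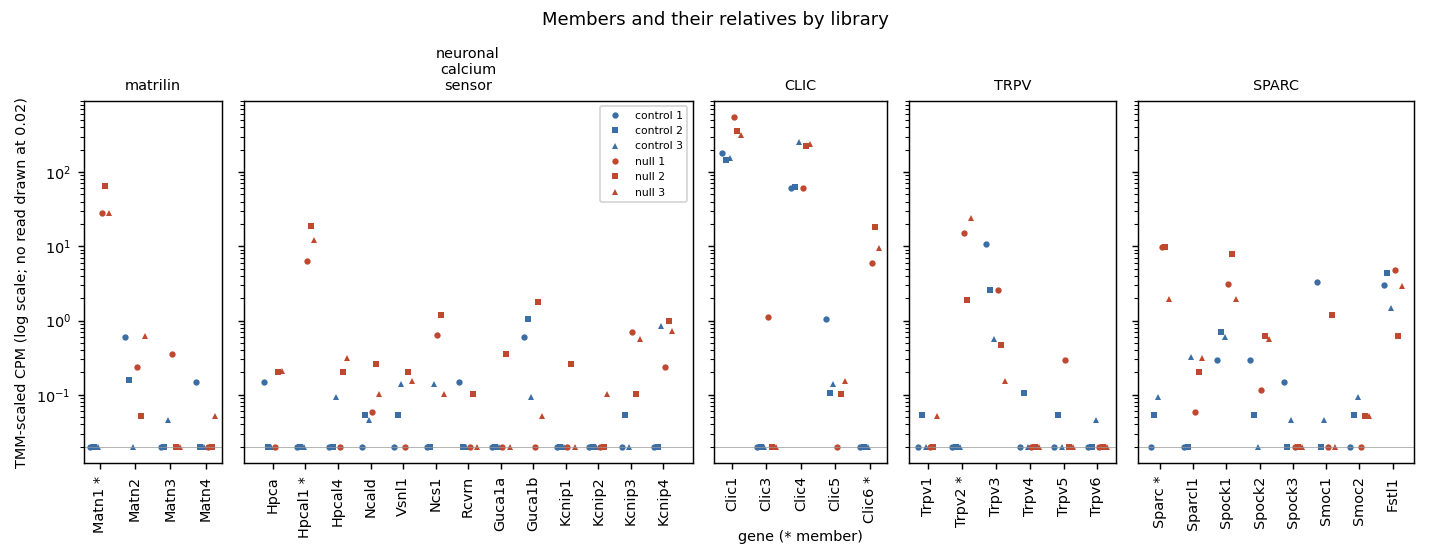
TMM-scaled CPM (y, log scale; libraries with no read drawn at 0.02) of the 5 leading members, marked with an asterisk, and of their relatives in the matrilin, neuronal calcium sensor, CLIC, TRPV and SPARC families (x), 1 point per library, controls in blue and nulls in red. In each family the member has points above 1 CPM in all 3 nulls and none above 0.1 CPM in controls, and most relatives lie near the bottom line in both groups.

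The genome around the members was examined to see whether they lay in shared stretches, using the gene order of RefSeq. No member had another member as its nearest flanking gene, apart from the overlapping pair Rhod and A930001C03Rik. Of 155 flanking genes outside the set, 34.8% had a control sum of 3 or less, against 46.4% of all rows. With group alone 5 of the 86 tested neighbours were higher in null (5.81%, where 1.14% of all tested genes were) and 0 lower (edgeR; 6 at unadjusted p under 0.05). These were Laptm5 beside Matn1, Ak1 beside Eng, Aen beside Isg20, Avpi1 beside Marveld1 and Cdkn1a beside Rab44. Ak1, Aen and Cdkn1a are also on the list of p53 targets measured below, so the neighbour and p53 counts share these genes. Ak1 met the count rule itself, which fixed its direction; without it 4 of 85 were higher (4.71%), and 14 of 85 (16.5%) with title set as a term. Laptm5, a lysosomal protein of blood cells, had 0, 0.0533 and 0.372 CPM in controls and 29.6, 22.0 and 25.5 CPM in nulls (edgeR adjusted p = 0.019). The filter on low counts kept a neighbour near 0 in controls, such as Laptm5, only where nulls had reads, which favours higher values. Cdkn1a, which encodes the cell cycle inhibitor p21, went from 5.33 to 12.0 CPM in controls to 550 to 927 CPM in nulls, while Rab44 beside it reached 1.29, 3.39 and 2.02 CPM. With title set as a term 15 neighbours were higher (17.4%) and 2 lower (2.33%), where 8.65% and 4.16% of all tested genes were. The shares over all tested genes again include the members, whose direction the rule fixed. Among the 15 was Hspa1b, the near-identical copy of Hspa1a. DESeq2 called 10 higher and 1 lower. With group alone the count was 1 without null replicate 2, 2 without control replicate 1 or 2, and 3 without null replicate 1 or 3. With title set as a term it was 5 to 7 without control replicate 1 or 2 or null replicate 1 or 2.

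Targets of p53 were measured because that pathway was already known to be active in null cells from an earlier account of these data. The list was therefore not chosen independently of these libraries. Fas, Ak1 and Tap1, which met the rule, are such targets, and Sulf2 is both a member and on the list. Of 45 tested targets outside the set, 15 were higher in null with group alone (33.3%) and 0 lower, with a median log2 ratio of 2.36 against 0.13 over all tested genes. Fas, Ak1 and Tap1 are among these, and the count rule they met fixed that they were higher. Without them 12 of 42 were higher (28.6%) and 0 lower, with a median log2 ratio of 2.33, and with title set as a term 29 of 42 (69.0%) and 0. With these 3 counted, 32 were higher (71.1%) and 0 lower with title set as a term, and DESeq2 called 29 and 0. At an unadjusted p under 0.05, 0 were lower with group alone and 1 with title set. With group alone the count was 1 without null replicate 2, and 6 without control replicate 1 or 2 or null replicate 3. Without null replicate 1 it was 20 with title set as a term. Ak1, an adenylate kinase, was at 0, 0.0532 and 0.0465 CPM in controls and at 102, 89.95 and 62.9 CPM in nulls. Fas, the death receptor, had 0 control reads and 15.9, 16.4 and 4.29 CPM in the nulls, and Tap1, a peptide transporter, had 1 control read and 4.44, 12.2 and 5.63 CPM. The levels of these 3 genes are a description. Eda2r, a receptor of the TNF receptor family, had 8 control reads and stood just outside the rule, at 21.2, 25.7 and 34.1 CPM in the nulls. Like Ephx1 and Ptprv, it was near 0 in controls and was kept by the low-count filter only because nulls had reads. Such genes stay among the 42 and favour higher values. Among members, a p53 half-site lay in the window of 8 of 57 (14.0%), as given above. The share was 7.39% of all rows with a window and 8.06% of the other rows with a control sum of 3 or less. Sulf2 was not among the 8. None of the members other than Sulf2 was on the target list of 50 genes, and whether others are targets was not tested.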

How the data were processed

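Polyadenylated RNA was measured in 6 libraries, 3 control and 3 Setd8 null. The deposited values are whole-number counts per gene symbol, 1 table per library, with no normalization by the authors. Per the submitters' processing notes the tools were FastQC, Trimmomatic 0.32, TopHat2 2.1.0, HTSeq 0.6.1 and edgeR with build mm9; the sources used here do not give options or the strand setting. The 3 unlettered tables carried counter summary lines, which entered neither library sizes nor tests. Reads in no annotated feature were 42.9%, 7.72% and 6.07% of the totals of control replicates 1 and 2 and null replicate 1. In the same order, reads without a unique alignment were 24.1%, 22.5% and 32.4%, and ambiguous reads 0.657%, 2.17% and 2.35%. A further 25 symbols that had become dates were restored there. All sample columns were used.

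Members were found by the count rule. The members, the lists and the role groups were chosen with earlier results of these data known. Every member is named once, except 1 that is not reported here. Values per library are given for the 5 leading genes and the 20 members with the highest lowest null CPM, and for others chosen after their values were seen; from each list the 2 to 4 called genes with the largest ratio, or the most abundant where none was called, and the 3 genes nearest each threshold are named.

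In R 4.3.3 with edgeR 4.0.16, filterByExpr kept 10512 genes, TMM factors gave CPM, and glmQLFit with robust=TRUE and glmQLFTest compared the groups, 2-sided, with Benjamini-Hochberg adjustment over all tested genes at 0.05. The fit with group alone has 4 residual degrees of freedom and the fit with title set 3. The labels do not say that replicates were separate embryos, so that p-values reflect the scatter of these samples only, part of which may be technical. Lengths are those of the longest GENCODE transcript. Depth sets a limit of 3 counts over the controls, 0.0638 CPM.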

Additional observations from a re-analysis of the deposited data

How the results depend on the processing

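The rule's cutoffs set the number of genes: 33 with a control sum of 0, 161 with a sum up to 10, 150 with at least 10 and 19 with at least 50 counts in each null. Leaving out a library loosens the rule by construction and gave 107 to 201 genes, with the largest number without control replicate 3. The count of all genes higher in null was 120 with group alone, 264 without the filter, 795 with DESeq2 (version 1.42.0) and 909 with title set as a term; leaving out a library gave 3 to 109 with group alone (3 without null replicate 2) and 162 to 869 with title set (162 without null replicate 1, which leaves the unlettered set without a null). The counts over all genes include members, whose direction the rule fixed. Targets of p53 gave 15, 29 with DESeq2 and 32 with title set, and 1 to 18 and 20 to 32 without a library, with 1 again without null replicate 2. Markers of other tissues gave 3, 22 and 17 in the same order, and 0 to 6 and 2 to 15 without a library, with 0 without control replicate 1 or any single null. Neighbours gave 5, 10 and 15, and 1 to 5 and 5 to 14 without a library. RLE size factors moved none of the 4 counts by over 1.5 times. The cause of these shifts was not tested. The fits that leave out a library from the fit with title set, and the counts without genes that met the count rule, were added after seeing the data. No paired analysis was possible because the labels give the libraries no replicate numbers.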

Other observations

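A further 83 genes had a control sum of 4 to 10 and at least 20 counts in each null. The most abundant of these, picked after their values were seen, was Anxa8, an annexin of epithelia, with 0, 1 and 5 control reads and 1880, 1830 and 807 null reads, or 110, 94.0 and 41.7 CPM. That exceeds the level of Matn1 in each null library. Next came 1700007K13Rik at 20.2, 52.0 and 32.8 CPM and the muscle filament gene Des at 31.6, 37.6 and 17.4 CPM. Cpt1c, a carnitine palmitoyltransferase of the brain, was at 14.1, 26.4 and 15.2 CPM. Rec8, a cohesin subunit of meiosis, was at 27.6, 4.005 and 12.6 CPM, and Kcnmb1, a potassium channel subunit of smooth muscle, at 6.54, 13.04 and 20.5 CPM.

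In the opposite direction no gene met the exchanged rule. The genes named here had a null sum of 3 or less and were those with the most reads in their lowest control. By the sum over controls, 11 rows with such a null sum reached 60 or more. The largest was Fam166a with 1860 reads, but with fewer in its lowest control than the genes named here. Tnfrsf4, a receptor of activated T cells, had 16, 17 and 10 control reads and 0 in every null. Itgb1bp2, a muscle protein, had 9, 43 and 15 control reads and 0 in every null. Il15ra, a cytokine receptor chain, had 9, 18 and 10 control reads and 1 null read. Angpt2, a ligand of the Tek receptor, had 16, 17 and 8 control reads and 2 null reads.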
